A study of Polistes metricus with 16 samples.

Results

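Workers of the paper wasp Polistes metricus that had lived on a nest of their own species were compared with foundresses that had learned the same visual stimuli. The comparison takes 8 of the 16 brain libraries of the series by their labels alone, 4 workers (MW21, MW25, MW40 and MW42) and 4 foundresses (M30, M67, M79 and M91), with 1 adult female per library. Of 127674 transcript identifiers, 52526 had 10 or more counts in 4 or more of these 8 wasps and were tested. The workers had been moved as adults to a nest of their species on which they were not born and had spent at least 1 week there. Both groups were trained over 40 trials in a T-maze with negative reinforcement to tell apart faces of the related species Polistes fuscatus, and were frozen 30 minutes after the last trial. The foundresses and MW21 carry a June 2012 collection date, and the other 3 workers one in July 2012. The treatment notes place the collection of foundresses in early spring, which differs from that date. Caste therefore goes together with age, transfer to another nest and, but for MW21, month, and these cannot be told apart here. The labels name neither the birth nest nor the host nest of any wasp.

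Polistes colonies are founded in spring by overwintered queens, the foundresses, who lay eggs, build and at first forage alone. Their first daughters mostly stay as workers, which forage and feed the brood while the foundress lays most of the eggs. Both castes develop from the same kind of egg, and in paper wasps the roles stay flexible into adult life, so brain gene activity has long been used to study how they differ. P. fuscatus wasps recognise individual nestmates by their faces, whereas P. metricus faces vary little. The stimuli thus showed the faces of another species.

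Neither the table nor any other source used here pairs the identifiers with genes. What follows is given per transcript, no gene's role can be stated, and brain or caste marker genes could not be checked. Values are CPM, counts per 1000000 counts of the library after scaling. In brain tissue as a whole, a lower level can mean fewer cells of a type or less RNA per cell, and these cannot be told apart.

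Total counts ran from 14949149 to 19074744 in workers and from 17289375 to 21822598 in foundresses. The 6 pairs of workers had Pearson correlations of log2 CPM from 0.954 to 0.975, the 6 pairs of foundresses 0.942 to 0.976, and the 16 pairs of a worker and a foundress 0.926 to 0.965. For 7 of the 8 wasps the most similar library belonged to the same group. The exception was the foundress M79, which correlated best with the worker MW25, at 0.958. Its correlation with the foundress M91 was almost as high, at 0.956. Its mean squared log2 distance averaged 0.404 to the workers and 0.442 to the other foundresses, so on average M79 lay nearer to the other group. Single distances overlapped, with 0.372 to 0.434 to the workers, and 0.391 to M91, 0.421 to M67 and 0.513 to M30. M79 thus stood far from wasps of both groups. Results are therefore also given without M79.

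**Figure D1:**
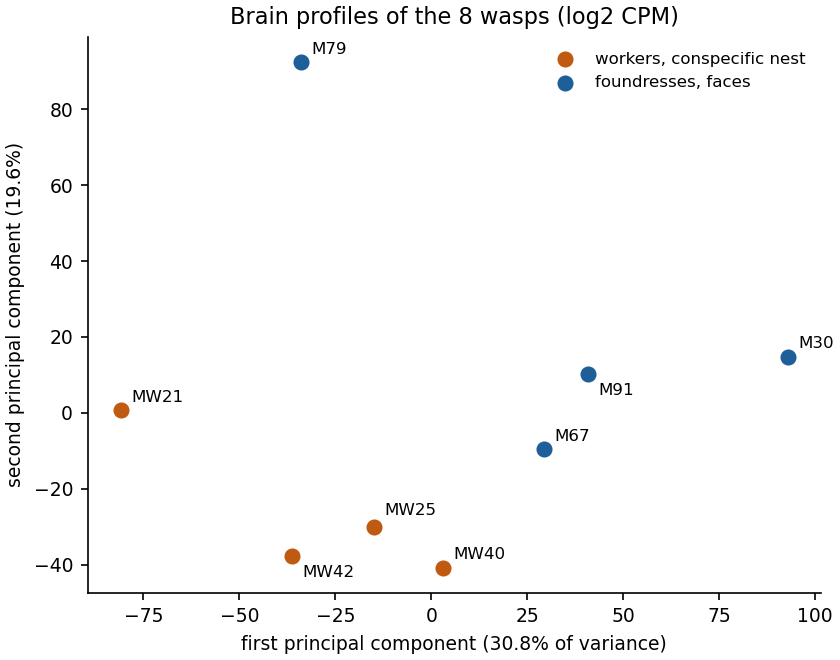
The first 2 principal components of log2 CPM over the 52526 tested transcripts, with 1 point per wasp. The 4 workers lie at or below 0.769 on the second component, and M79 stands at 92.4 on it, away from the other foundresses at -9.61 to 14.8.

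Whole profiles of workers and foundresses were not shown to separate by regrouping the wasps, a test with little room at this size. The 2 groups accounted for 23.1% of the summed squared distance between the 8 libraries. As much was given by 4 of 70 assignments of wasps to groups, the actual one and its mirror image among them (exact permutation p = 0.0571, adjusted p = 0.0857 over 3 such tests, where 0.0286 is the smallest possible before adjustment). A single one of the 3 tests at 0.0286 still has an adjusted p of 0.0857, so it could not pass by itself. Without M79 the share was 31.4% (exact permutation p = 0.0286, again the smallest possible). M79 was left out because its profile lay, on average, nearer to the workers. The larger share without it therefore adds no separate support for a difference. On the first component, which held 30.8% of the variance, workers lay from -80.8 to 2.93 and foundresses from -34.04 to 92.8. The groups overlapped there because M79 lay among the workers. The 100 most abundant transcripts held 18.8% ± 5.42 of counts in workers and 18.3% ± 1.60 in foundresses (SD, n = 4 each; exact two-sided permutation p = 0.971, adjusted p = 0.971). Among workers MW21 had the highest such share, 26.5%, against 14.5% to 18.9% in the other 3.

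Fewer identifiers were detected in each worker than in each foundress. With every library thinned to 14949149 counts, 82298, 84851, 85318 and 86259 identifiers had at least 1 count in the 4 workers, against 87185, 87619, 88110 and 88644 in the 4 foundresses. Every worker lay below every foundress, and the mean difference, workers minus foundresses, was -3208 (exact two-sided permutation p = 0.0286, the smallest possible, adjusted p = 0.0857). Without M79 it was -3134 (exact two-sided permutation p = 0.0571). Before thinning the means were 86970 ± 3128 in workers and 92656 ± 1143 in foundresses (SD, n = 4 each). With 5 counts as the minimum the groups overlapped, and the thinned means were 57415 ± 1134 in workers and 57744 ± 343 in foundresses (SD, n = 4 each; exact two-sided permutation p = 0.829).

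Transcript by transcript, 615 of the 52526 (1.17%) differed between the castes by edgeR's quasi-likelihood test at an adjusted p under 0.05, and these are referred to as called. Levels were higher in workers in 415 (0.79% of those tested) and lower in 200 (0.381%). The median fold was 1.86 among the 415, and the median transcript of the 200 stood at 0.52 of the foundress level, so most called differences were under 2-fold. A difference of 2-fold or more was found in 145 called transcripts higher and 80 lower in workers, and one of 4-fold or more in 9 higher and 23 lower. Over all tested transcripts the typical (median) log2 difference was 0.22 in size, its standard error 0.21 at the median, and 2.37% differed by 2-fold or more in either direction. Called or not, 93 of the 52526 differed by 4-fold or more in either direction.

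In each of the 615 called transcripts, every worker lay beyond every foundress. Groups stood apart in this way in many transcripts that were not called. Over all those tested, every worker lay above every foundress in 3556 (6.77%) and below every foundress in 2630 (5.01%). An unadjusted p under 0.05 was found for 9511 transcripts (18.1%), against 2626 if p-values were spread evenly.

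**Figure D2:**
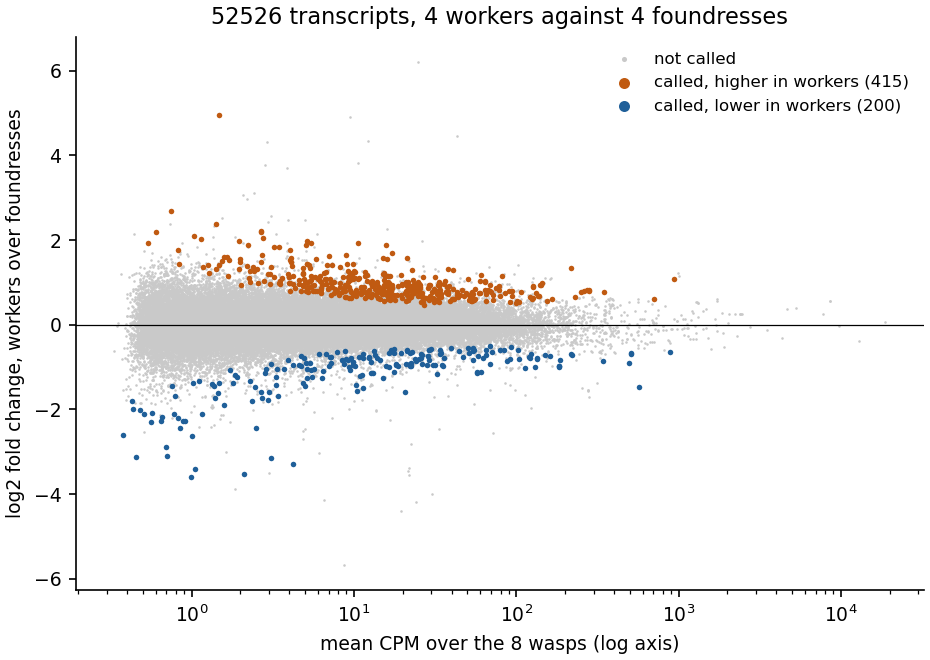
Log2 fold change, workers over foundresses, against the mean CPM of each of the 52526 tested transcripts on a log axis. The 415 called transcripts higher in workers and the 200 lower in workers are coloured, and large folds among them sit mainly at low levels, where many uncalled transcripts moved as far.

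Calls were more frequent among abundant transcripts, where single values are more precise. By 4 equal bins of mean level, 0.396% were called in the lowest (median 0.963 CPM), 0.838% in the next, 1.26% in the one above and 2.19% in the highest (median 30.7 CPM). The median standard error of the log2 fold change was 0.35, 0.23, 0.16 and 0.13 in the same order. The balance of directions also differed along this range. In the lowest bin 19 called transcripts were higher and 33 lower in workers, whereas in the highest 197 were higher and 91 lower.

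The number of calls depended strongly on which wasps were included. Leaving out 1 wasp at a time gave between 27 calls, without M91, and 1351, without M79. It gave 69 without MW42, 92 without MW40, 111 without MW25, 135 without MW21, 140 without M30 and 488 without M67. Without M79, 846 were higher and 505 lower in workers, and 589 of the 615 were among them. Without MW21, the worker collected in June, 64 were higher and 71 lower, so the share of calls that were higher, 67.5% with all 8 wasps, was 47.4% there. A set of 23 transcripts was called in all 8 of these fits, 17 higher and 6 lower in workers, with log2 fold changes of 0.81 to 2.43 in size.

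**Figure D3:**
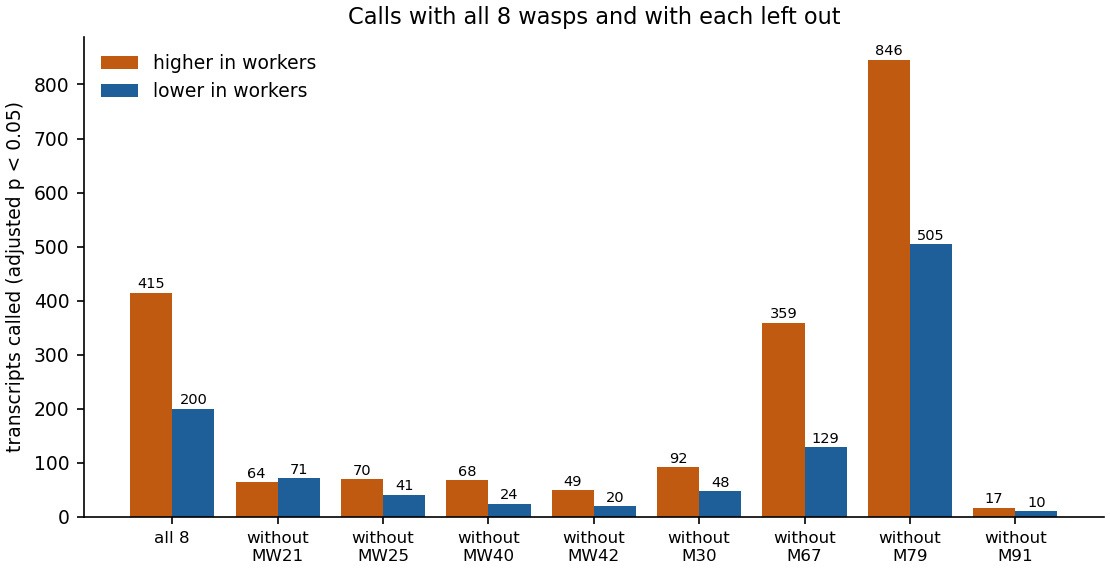
Bars give the number of transcripts called higher and lower in workers by edgeR at an adjusted p under 0.05, with all 8 wasps and with each left out in turn. Only the fit without M79 called more than the 615 of all 8 wasps, and only the fit without MW21 called more lower than higher.

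Each wasp could also be placed by transcripts chosen without it. Transcripts called in the other 7 wasps were taken, and the left-out wasp was scored on whether it lay on its own group's side of the midpoint between the 2 group means of those 7. The count filter and the scaling of the scored values had used all 8. The June worker MW21 lay on the workers' side in 109 of 135 such transcripts (80.7%), against 59.2% of all tested transcripts. It did so in 62 of the 64 higher and in 47 of the 71 lower in the other workers. For MW25 the share was 92 of 111 (82.9%), for MW40 88 of 92 (95.7%) and for MW42 58 of 69 (84.1%), where all tested transcripts gave 59.1%, 51% and 61.3%.

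Among foundresses, M30 lay on the foundresses' side in 131 of 140 (93.6%) and M91 in 26 of 27 (96.3%), against 64.8% and 60.7% of all tested transcripts. M67 did so in 368 of 488 (75.4%, against 53.9%). M79 did so in 819 of 1351 (60.6%, against 47.5%). It fell on its own side in 566 of the 846 transcripts higher in workers and in 253 of the 505 lower in workers, so for the transcripts lower in workers it stood on either side about equally often.

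Month of collection was nearly the same split as caste, and MW21 alone separates them. With month as a term in the fit, the caste difference rests on MW21 against the 4 foundresses, and edgeR called 9 transcripts, all higher in workers. An unadjusted p under 0.05 was found for 7711. All 615 called transcripts had the same sign as before and 591 of them an unadjusted p under 0.05, but MW21 was itself among the wasps that chose them. The median standard error was 0.32 in this fit, wider than without the term.

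Identifiers carry no gene names, so 4 transcripts are named, the 2 with the largest rise and the 2 with the largest fall among called transcripts with 10 or more counts in every wasp of the higher group. They are the ends of the range and stand at low levels, where differences rest on few counts. Groups that do not overlap were part of the rule, so that trait of the 4 is not a result. PmetTSAr2.0-088208 and PmetTSAr2.0-053818 passed the count filter through the higher group alone.

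PmetTSAr2.0-088208 had the largest called rise. It had 42, 15, 81 and 56 counts in the workers MW21, MW25, MW40 and MW42, against 0, 7, 0 and 0 in the foundresses M30, M67, M79 and M91. Counts in all 4 workers were required by the rule, and 3 of 4 foundresses had no count of it. Its level was 2.88 ± 1.76 CPM in workers and 0.082 ± 0.164 CPM in foundresses (SD, n = 4 each). The fitted log2 fold change was 4.94 ± 0.92 (SE) with an edgeR adjusted p of 0.0433, and because most foundresses were at 0 its size depends on the prior count of the fit.

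PmetTSAr2.0-060350 had 28, 28, 20 and 13 counts in MW21, MW25, MW40 and MW42, against 10, 3, 2 and 1 in M30, M67, M79 and M91. The lowest worker and the highest foundress lay close together, at 0.689 and 0.465 CPM. Levels averaged 1.30 ± 0.454 CPM in workers and 0.19 ± 0.186 CPM in foundresses (SD, n = 4 each), a log2 fold change of 2.68 ± 0.52 (SE) with an edgeR adjusted p of 0.036.

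PmetTSAr2.0-053818 had the largest called fall. It had 6, 1, 2 and 1 counts in MW21, MW25, MW40 and MW42, against 51, 43, 15 and 38 in M30, M67, M79 and M91. M79 was the lowest foundress and MW21 the highest worker, and the groups did not overlap. Levels averaged 0.152 ± 0.153 CPM in workers and 1.84 ± 0.759 CPM in foundresses (SD, n = 4 each), or -3.6 ± 0.57 (SE) as a log2 fold change (edgeR adjusted p = 0.0205).

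PmetTSAr2.0-049240 had 7, 3, 2 and 11 counts in MW21, MW25, MW40 and MW42, against 160, 48, 48 and 60 in M30, M67, M79 and M91. M30 stood well above the other foundresses, which were close to each other, and no worker came near them. Levels averaged 0.327 ± 0.22 CPM in workers and 3.89 ± 2.44 CPM in foundresses (SD, n = 4 each), or -3.53 ± 0.54 (SE) as a log2 fold change (edgeR adjusted p = 0.0221).

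All 4 calls were lost when some single wasps were left out. Over 13 other settings or left-out wasps, PmetTSAr2.0-049240 was called in 7 and PmetTSAr2.0-088208 in 5. DESeq2 gave no adjusted p for PmetTSAr2.0-053818 and PmetTSAr2.0-060350, which were called in 6 and 4 of the other 12. Adjusted p-values (edgeR, limma or DESeq2) were at most 0.229. The sign was the same in each of these fits, but sizes moved. The log2 fold change of PmetTSAr2.0-088208 ran from 4.52 to 8.73, the highest without M67, the one foundress that had counts of it. That of PmetTSAr2.0-060350 ran from 2.43 to 3.59, the highest without M30. For PmetTSAr2.0-053818 it was -4.52 without MW21 and -2.27 with month as a term, and for PmetTSAr2.0-049240 it stayed between -3.99 and -3.00.

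**Figure D4:**
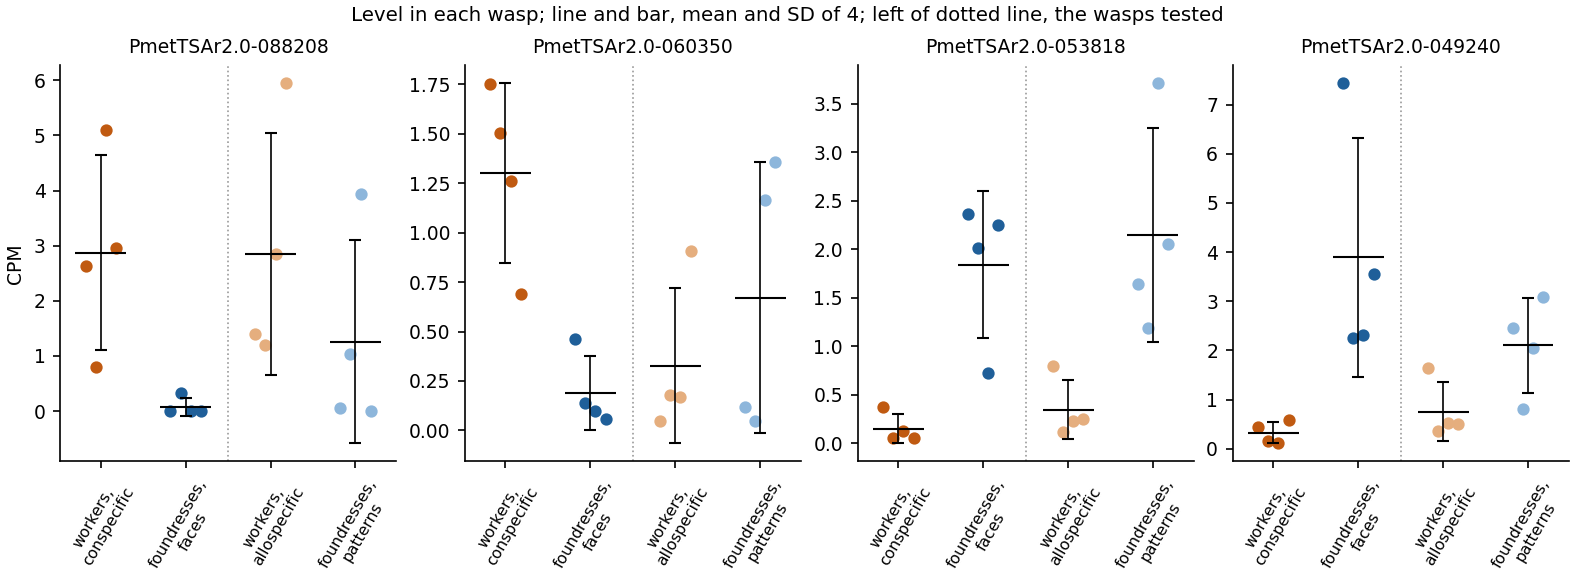
CPM of the 4 named transcripts in all 16 wasps, with points for wasps, a line for the mean and a bar for the SD of each group of 4. To the left of the dotted line, PmetTSAr2.0-088208 and PmetTSAr2.0-060350 are higher in every worker and PmetTSAr2.0-053818 and PmetTSAr2.0-049240 lower in every worker. The rule that named them required this. To its right, wasps that took no part in the test are shown.

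The other 8 wasps of the series share no library with this comparison, so they give the same transcripts in animals that did not choose them. They are 4 workers kept on P. fuscatus nests (allospecific) and trained to faces, and 4 foundresses trained to simple patterns, whose labels date the workers to July and the foundresses to May. These workers differ from the first 4 in their nest, and these foundresses from the first 4 in stimulus and month. Values of these wasps come from a scaling of all 16 libraries. Their edgeR results below come from a fit of all 16 wasps, so the first 8 also entered its estimate of spread.

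PmetTSAr2.0-053818 was lower in every worker in both sets. In the second it averaged 0.349 ± 0.303 CPM in workers from allospecific nests and 2.15 ± 1.10 CPM in foundresses trained to patterns (SD, n = 4 each), and the groups did not overlap, with 0.12 to 0.795 CPM in the workers and 1.18 to 3.71 CPM in the foundresses. By edgeR this was a log2 difference of -2.54 ± 0.54 (SE), adjusted p = 0.0629. The means of PmetTSAr2.0-049240 in the same groups, which overlapped, were 0.753 ± 0.593 CPM in workers and 2.10 ± 0.962 CPM in foundresses (SD, n = 4 each). Its log2 difference there was -1.43 ± 0.55 (SE), at an adjusted p of 0.296 by edgeR.

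The transcripts named for a rise showed no such separation. PmetTSAr2.0-088208 had 30, 20, 50 and 118 counts in the workers MW30, MW32, MW41 and MW47, against 1, 22, 71 and 0 in the foundresses M1, M15, M4 and M5. Its near absence was thus seen in 2 of the 4 foundresses trained to patterns, while M4 had more than 3 of these 4 workers. PmetTSAr2.0-060350 was lower in workers there, with 1, 3, 3 and 18 counts in the workers and 2, 1, 21 and 29 in the foundresses, although the groups overlapped. Its log2 difference was -1.02 ± 0.85 (SE) with an edgeR adjusted p of 0.666, opposite in sign to that of the first 8 wasps.

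Most called transcripts differed in the same direction in these other wasps, in both directions. Of the 415 called higher, 330 (79.5%) had a higher mean in workers from allospecific nests than in foundresses trained to patterns, and of the 200 called lower, 186 (93%) had a lower one. Over all tested transcripts 51.8% were higher and 48.2% lower. The median log2 difference was 0.2 among the 415 and -0.44 among the 200, against 0.01 over all tested transcripts, and against 0.9 and -0.93 for these sets in the wasps that chose them. Every worker lay above every foundress in 65 of the 415 (15.7%, against 3.93% of all tested), and below in 70 of the 200 (35%, against 3.44%). Calls made without M79 gave 646 of 846 (76.4%) and 408 of 505 (80.8%) in the same direction.

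The share with the same sign in the other 8 wasps was 83.9% for the 615 called, 68.8% for the 1611 with adjusted p-values of 0.05 to 0.1, 65.4% for the 3862 at 0.1 to 0.2, 58% for the 13920 at 0.2 to 0.5 and 50.6% for the remaining 32518. Among called transcripts it was 78.2% and 82.1% for those higher in workers by under 2-fold and by 2-fold or more, and 92.5% and 93.8% for those lower by under 2-fold and by 2-fold or more. When the allospecific-nest workers were tested against the foundresses trained to patterns in a fit of all 16 wasps, edgeR called 118 transcripts (0.225%). Of these, 42 were among the 615, which is 35.6% of the 118 and 6.83% of the 615, and all 42 had the same direction in both. The wasps that chose the 615 also entered the spread estimate of that fit, so the overlap of the 2 lists is not independent of that choice.

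Placed wasp by wasp against the same midpoints, workers from allospecific nests lay on the workers' side in 58.9% (MW30), 87.3% (MW32), 89.4% (MW41) and 81.8% (MW47) of the 615 transcripts, where all tested transcripts gave 47.4% to 63.3%. MW30 stood apart from the other 3. It lay on the workers' side in 82% of the transcripts called lower but in 47.7% of those called higher. Foundresses trained to patterns lay on the workers' side in 27.8% (M1), 37.4% (M15), 53.7% (M4) and 48% (M5), where all tested transcripts gave 44.1% to 55.2%. M4 and M5 were thus near the middle between the groups, and in the transcripts called higher M4 lay on the workers' side in 64.8%.

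**Figure D5:**
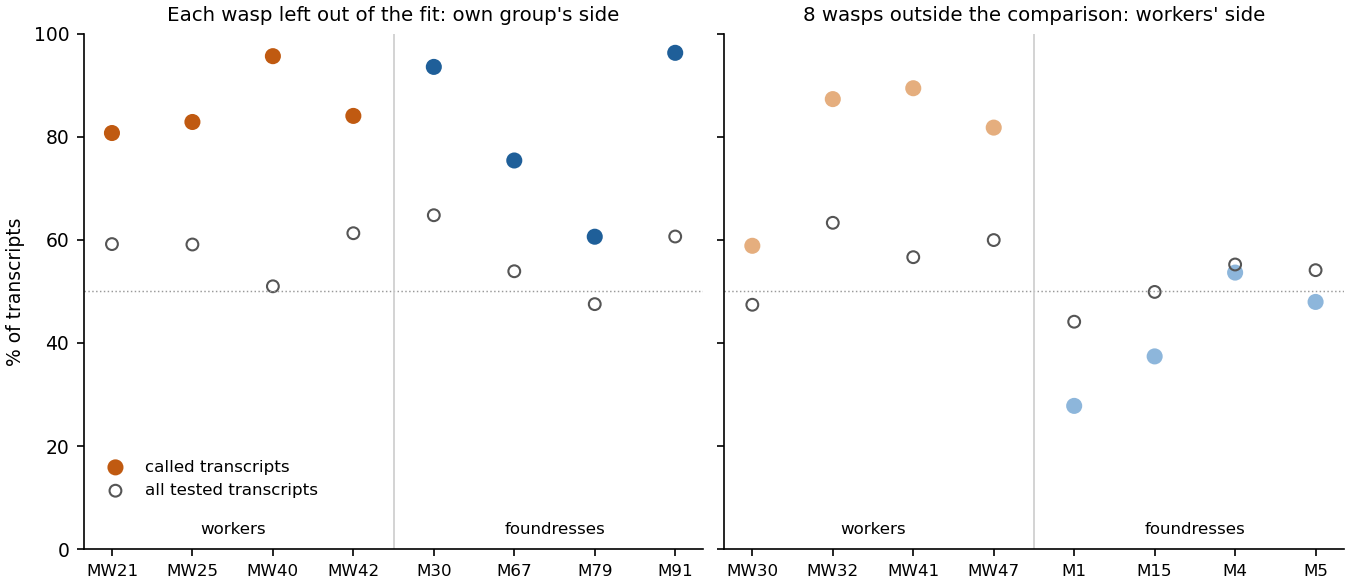
Left, share of transcripts called in the other 7 wasps for which each left-out wasp lay on its own group's side of the midpoint. Right, share of the 615 called transcripts for which each wasp outside the comparison lay on the workers' side. Filled points are called transcripts and open points all tested transcripts. M79 is the lowest of the left panel, at 60.6%, and MW30 the lowest worker of the right, at 58.9%.

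As a part of all counts, the 415 transcripts called higher held 1.72% ± 0.104 in workers from conspecific nests and 0.983% ± 0.14 in foundresses trained to faces, and 1.57% ± 0.0981 in workers from allospecific nests and 1.20% ± 0.176 in foundresses trained to patterns (SD, n = 4 each). The 200 called lower held 0.65% ± 0.0634 in conspecific-nest workers and 1.16% ± 0.0788 in face-trained foundresses, and 0.755% ± 0.0367 in allospecific-nest workers and 0.86% ± 0.0546 in pattern-trained foundresses (SD, n = 4 each). Workers from conspecific nests and foundresses trained to faces chose these transcripts, so their values are a description. In both sums the 2 groups that did not choose the transcripts stood between the 2 that did. Such a place can follow from the choice itself, which was not tested.

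No transcript was called between workers from conspecific nests and workers from allospecific nests. Workers from conspecific nests were tested against workers from allospecific nests in the fit of all 16 wasps, over the same transcripts. EdgeR called 0 (0%), and 1173 had an unadjusted p under 0.05. The typical (median) log2 difference was 0.12 in size, and its standard error 0.2 at the median. This direct test therefore shows no single transcript to be particular to workers from conspecific nests. Against the face-trained foundresses in the same fit, edgeR called 1668 transcripts for workers from conspecific nests and 146 for those from allospecific nests. Of the 615, 566 and 104 were among these, and 614 and 587 had an unadjusted p under 0.05. Wasps that chose the 615 are in both comparisons. Whether the smaller number of calls follows from the nest was not tested.

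Called transcripts often had neighbouring numbers, so their count is not a count of genes. Of 445 called transcripts whose next-numbered identifier was also tested, 104 (23.4%) were followed by another called one. Of all tested transcripts, 1.17% were called. All 104 pairs moved in the same direction. Over the 36869 pairs of adjacent tested identifiers, log2 fold changes had a Pearson correlation of 0.38. Within groups the members of the 104 called pairs varied together, with a median correlation of 0.88 over the 8 wasps. The median was 0.38 over the 36869 pairs. Pairs were not matched for level, and called transcripts had a median of 14.8 CPM, against 5.70 CPM over all tested. Joined where numbers lay at most 3 apart, the 615 fell into 450 runs, of which 290 held transcripts higher in workers, 159 lower and 1 both. A single transcript made up 347 of the runs, and the longest held 7, all higher in workers by log2 fold changes of 0.9 to 1.16. Whether such runs are fragments or variants of 1 gene was not tested.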

How the data were processed

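Per the labels' protocols, 1 µg of total RNA from each brain was prepared with a TruSeq RNA kit of Illumina. The tools named, per the submitters' processing notes, were Trimmomatic 0.32, Bowtie2 and eXpress, without options. The sources used here do not name the transcript set, the strand setting or the treatment of shared reads. The authors deposited whole-number counts per identifier, which may be rounded estimates. Each column was matched to a wasp by its name, and none was left over.

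Identifiers with 10 or more counts in 4 or more of the 8 wasps went into edgeR 4.0.16 (R 4.3.3; TMM factors of 0.863 to 1.07, robust quasi-likelihood F test, 6 residual degrees of freedom, Benjamini-Hochberg adjustment over all 52526). They made up 99.3% to 99.5% of each library, and 75148 identifiers were left out. A transcript high in only 1 group passes this filter through that group alone. Just inside the filter were 1530 identifiers with 10 counts in exactly 4 wasps, with a median of 80 counts over the 8 wasps, and just outside it 1646 with 10 counts in exactly 3 wasps, with a median of 69. The common biological coefficient of variation was 21.3%. The standard error is the log2 fold change divided by the square root of F. Whole profiles used log2 CPM with a prior count of 2. Exact permutation tests ran over all 70 assignments of 4 of the 8 wasps. Thinning to the lowest total was binomial, with a fixed seed. Each wasp counted as 1 replicate.

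Alternatives were other scalings, count filters and thresholds, DESeq2 1.42.0, limma 3.58.1 voom, month as a term, all 16 wasps in 1 fit, and each wasp left out. The members, lists and tests were chosen with earlier results of these data known. No gene lists could be used, because the identifiers carry no gene names.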

Additional observations from a re-analysis of the deposited data

Results flagged for a closer look

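In groups of 4 values, the highest or lowest was examined for a gap to its nearest neighbour of more than 0.829 of the group's range. Of 32 groups examined 4 were marked. The usual rate of about 1 in 20 is for normally distributed, unrelated values. It does not hold for low counts or for several quantities of the same libraries, so no excess can be read from it. The number of identifiers with a count before thinning was 82298 in the worker MW40, against 88142 to 88836 in the other 3 workers. MW40 also had the lowest total count. At equal totals it was not marked, with 82298 against 84851 to 86259. For PmetTSAr2.0-088208, M67 had 0.328 CPM where the other 3 foundresses trained to faces had 0, and 3 equal values always lead to a mark. For PmetTSAr2.0-060350, MW47 had 0.907 CPM where the other 3 workers from allospecific nests had 0.0468 to 0.18 CPM. For PmetTSAr2.0-049240, MW30 had 1.64 CPM where the other 3 workers from allospecific nests had 0.36 to 0.513 CPM.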

How the results depend on the processing

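The count of 615 called transcripts, 415 of them higher in workers, was within 1.5 times under DESeq2 size factors, upper-quartile factors, edgeR's own count filter and with the 278 transcripts that varied with the most abundant one left out (564 to 605 calls). It was 3636 (2208 higher) with no low-count filter, 2451 (1566 higher) by the DESeq2 test, 2226 (1427 higher) at an adjusted p under 0.1, 1668 (1086 higher) with all 16 wasps in the fit, 1449 (981 higher) with limma-voom quality weights, 338 (232 higher) with limma-voom and 9 (9 higher) with month as a term. Leaving out single wasps gave 27 to 1351 calls, 17 to 846 of them higher. Counts of transcripts whose groups did not overlap, 6186 with all wasps, were 7225 to 10783 with 1 wasp fewer, an alternative chosen after seeing the data. The profile share of 23.1% was 22.4% to 31.4% with single wasps left out, and past the threshold without M67 or M79. The difference in identifiers detected was -3734 to -2414 with single wasps left out (exact permutation p = 0.0571 without any 1 foundress), and -329 with 5 counts as the minimum. The share of the 100 most abundant differed by 0.509 percentage points, by -0.00476 for the 500 most abundant, and by -2.04 (without MW21) to 1.94 with single wasps left out. Apart from the counts of groups that did not overlap, the cause of these changes was not tested. Wasp numbers name animals and pair nothing. No paired analysis was possible because the groups share no replicate numbers. Differences near the median standard error of 0.21 on the log2 scale were not detectable with 4 wasps a group.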

Other observations

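Some identifiers, mostly with very few counts, were seen in only 1 group of the 8 wasps compared. Over all identifiers of the table, 34 had a count in all 4 workers and none in the 4 foundresses, and 234 had a count in all 4 foundresses and none in the 4 workers. With libraries thinned to 1 total these numbers were 68 in workers and 139 in foundresses. The typical one had a median of 1 count per wasp, and none had 10 or more counts in every wasp of its group. In the 8 wasps outside the comparison, the 234 had a count in 34.6% of values from workers on allospecific nests and in 49.2% of those from foundresses trained to patterns. For the 34 the share was 45.6% in these workers and 59.6% in these foundresses, and each of the 34 had a count in at least 1 of these foundresses. For any identifier with a count in the first 8 wasps it was 69.3% in the workers and 75.5% in the foundresses. The workers' share was the lower one in all 3 sets, including the 34 with no count in the foundresses trained to faces.

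Which group varied more between wasps depended on single foundresses. The median SD of log2 CPM over transcripts was 0.25 in workers and 0.27 in foundresses, and the SD was larger in workers in 45.5% of transcripts. That share was 55.3% without M30 and 54.6% without M79. Without MW21 it was 38.8%.

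The 278 transcripts whose log2 CPM correlated above 0.9 with the most abundant one over the 8 wasps held 4.12% to 18.7% of counts in workers and 6.65% to 9.74% in foundresses. MW21 had the highest share.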
